A study of Arabidopsis thaliana with 2 samples.

Results

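Cyclins, cyclin-dependent kinases (CDKs) and CDK inhibitors were examined in developing Arabidopsis thaliana seeds as a set of 41 genes, taken by gene identifier from the 33602 gene models of the deposited tables. The set holds 8 A-type, 9 B-type and 10 D-type cyclins, the kinase CDKA;1, the 4 plant-specific CDKB kinases, the Kip-related inhibitors KRP1 to KRP7, and the inhibitors SIM and SMR1. RNA sequencing was done on seeds of plants with the construct OLEOp:GmPSKγ1, in which a promoter labelled OLEOp stands before a soybean gene for a phytosulfokine precursor, and on seeds of plants with OLEOp:GmPSKγ1tc, labelled with the same promoter and named by the submitters as the control. Phytosulfokine is a sulfated peptide hormone of plants. Seeds of both genotypes were taken at 10 DAP, and each library pools RNA from 3 individual lines. The meaning of "tc" and the plants' accession do not appear in the labels, and the transgene itself was not analysed here.

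With 1 pooled library per genotype, no difference given here has a replicate check, and no test between genotypes was possible. Values are FPKM (fragments per kilobase of transcript, scaled to library size), so levels can be set side by side between genes. Low values fell on steps that correspond to single reads, and these steps place the scaling at 16.4 M reads in the GmPSKγ1 library and at 15.3 M reads in that of the control (M for 1000000). From reads per gene recovered this way, an exact (Clopper-Pearson) 95% interval was formed for the ratio of GmPSKγ1 over control of genes whose model overlaps no other. Such an interval holds counting error alone and says nothing of the spread between lines, and without molecular identifiers reads need not be independent molecules. In RNA of whole seeds, fewer cells of a type and less RNA per cell cannot be told apart.

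Cyclins bind and activate CDKs, and the active kinases drive a cell from one phase of its cycle to the next. D-type cyclins act mainly in G1 with CDKA, where the retinoblastoma protein is phosphorylated and E2F factors are released. A-type cyclins act from S phase onward, and B-type cyclins with the CDKB kinases act from G2 into mitosis. KRP and SIAMESE-type proteins bind cyclin-CDK complexes and block them, and the SIAMESE type is known to push cells into endoreduplication, rounds of DNA replication without division. In a developing seed, divisions of embryo, endosperm and seed coat come early and give way to expansion, endoreduplication and filling with reserves.

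Many mitotic genes of plants carry the mitosis-specific activator (MSA) element, which is bound by MYB3R factors. Its core AACGG and the extended forms CTAACGG and CCAACGG were searched on both strands of a 300-base window, running from 250 bases before to 50 bases after the annotated start of each gene (RefSeq, TAIR10.1). Each extended form contains the core. The deposited models of many members start downstream of this annotated start, by 713 bases at CYCA2;1 and 395 bases at CYCB2;4. Windows at the deposited starts were not searched. An extended form was found at 7 of the 9 B-type cyclin genes (77.8%) and at no other member, against 854 of 27443 protein-coding genes (3.11%). The core was more common, at 18 of the 41 members and at 24.7% of all protein-coding genes. Stretches upstream of the annotated start that hold extended forms are printed for 6 of the 7 genes. They run 5′ to 3′ on the strand of the gene, with the extended forms in capitals. These were printed because in this window most B-type genes hold these letters and no other member does.
CYCB1;1 (chr4:17624333-17624399, minus strand): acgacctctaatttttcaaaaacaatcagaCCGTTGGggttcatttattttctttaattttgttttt
CYCB1;2 (chr5:1861704-1861878, minus strand): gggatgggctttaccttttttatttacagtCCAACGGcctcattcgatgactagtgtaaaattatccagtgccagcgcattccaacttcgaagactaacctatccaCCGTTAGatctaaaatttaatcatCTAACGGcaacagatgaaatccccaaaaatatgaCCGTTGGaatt
CYCB1;3 (chr3:3627278-3627367, minus strand): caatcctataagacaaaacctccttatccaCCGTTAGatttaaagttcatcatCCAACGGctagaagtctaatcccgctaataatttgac
CYCB2;1 (chr2:7663938-7664004, plus strand): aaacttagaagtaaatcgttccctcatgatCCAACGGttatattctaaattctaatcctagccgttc
CYCB2;2 (chr4:16901394-16901506, plus strand): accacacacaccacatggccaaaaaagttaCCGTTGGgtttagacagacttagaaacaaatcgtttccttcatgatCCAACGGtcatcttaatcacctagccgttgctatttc
CYCB2;3 (chr1:7137860-7137926, minus strand): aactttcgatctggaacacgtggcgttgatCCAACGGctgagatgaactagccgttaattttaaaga

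Of the genes shown, 3 had more than 1 extended form. CYCB1;2 had 5, 1 of them just past the start and not printed, with 76, 24, 34 and 14 bases between the first letters of neighbouring forms. CYCB1;3 had 2, on opposite strands and 23 bases apart, and CYCB2;2 had 2, also on opposite strands and 46 bases apart. The other 3 genes shown had 1 each. The seventh gene, CYCB1;4, had its match 25 bases past the annotated start and is not printed. CYCB3;1 had the core alone, just past its start, and CYCB2;4 had neither form in the window. The deposited models of CYCB1;2, CYCB1;4 and CYCB3;1 start 54, 211 and 70 bases further downstream. Matches past the annotated start of these genes thus lie upstream of the deposited starts. The E2F-type letters TTTCCCGC, TTTCGCGC, TTTGCCGC and TTTGGCGC, searched on both strands, were found at 1 member, CYCD3;3, and at 1.76% of all protein-coding genes. A match describes the letters of a window and is not a bound site.

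**Figure D1:**
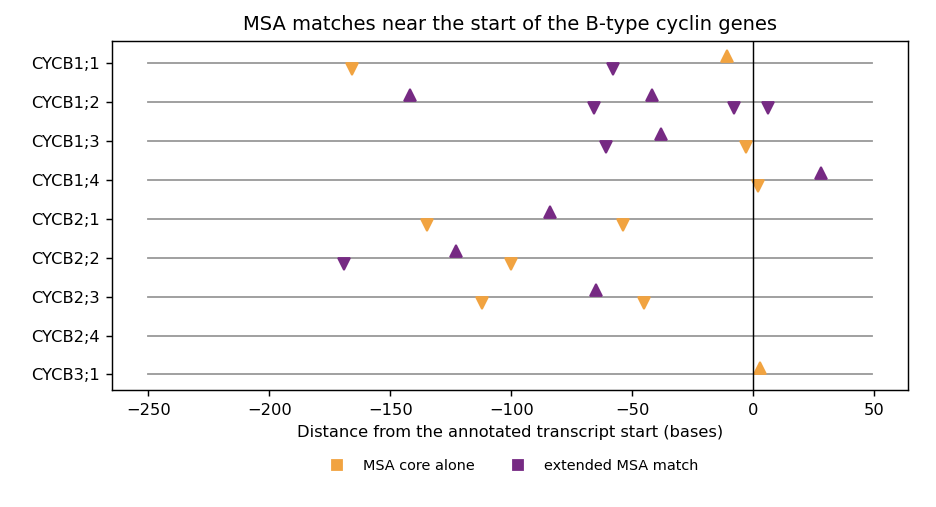
Position of MSA matches around the annotated transcript start of the 9 B-type cyclin genes, in bases from the start (0). Upward triangles are matches on the strand of the gene and downward triangles on the other strand. Purple marks the extended forms, found at 7 of the 9 genes, and orange the core outside an extended form.

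All 41 members were listed above 0 in both libraries, and 40 had a mean of at least 1 FPKM, the minimum for the counts given here. The exception was CYCD7;1, a G1 cyclin of the stomatal lineage, at 0.355 FPKM with GmPSKγ1 and 0.488 FPKM with the control construct, on 7 and 9 reads. The members were genes of middling abundance. Their median was 11.4 FPKM in GmPSKγ1 seeds and 9.16 FPKM in control seeds, beside 11.7 and 11.5 FPKM in the same order over all 17816 genes that passed the minimum. The same 4 genes were the most abundant in both libraries, namely the cyclin CYCD3;2, the kinases CDKB2;1 and CDKA;1, and the inhibitor SIM. CYCD3;2 ranked first with GmPSKγ1 and SIM ranked first in the control. At the low end, CYCA2;1, CYCD5;1, KRP7 and the CYCD4 genes were below 3 FPKM in both libraries.

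**Figure D2:**
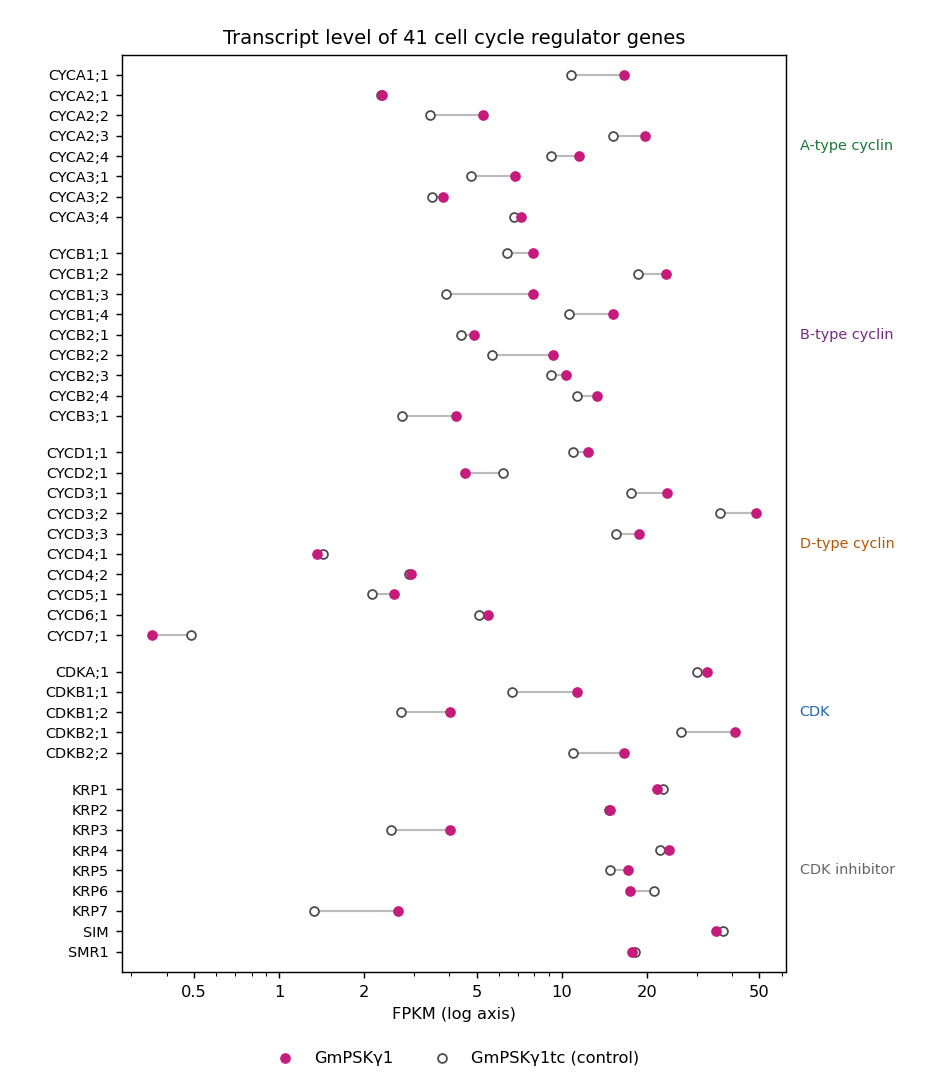
Transcript level of each of the 41 genes in FPKM (log axis), with GmPSKγ1 as filled points and the GmPSKγ1tc control as open points joined by a line, 1 library each. As deposited, filled points lie to the right of open points for every A-type and B-type cyclin and every CDK (under the median and abundant-gene rescalings, for all of these but CYCA2;1), and on either side for the inhibitors.

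Most members were higher in GmPSKγ1 seeds. On the log2(FPKM + 1) scale, 34 of the 40 measured members (85.0%) had a ratio of GmPSKγ1 over control above 0, where 57.9% of all measured genes did, and 6 had a ratio below 0, where 42.1% of all genes did. The median log2 ratio was 0.24 over the members and 0.05 over all measured genes. A threshold of 1.5-fold higher was passed by 5 members (12.5%), namely CYCB1;3, CYCB2;2, CDKB1;1, CDKB2;1 and KRP7, against 3.13% of all measured genes. None was 1.5-fold lower, against 2.68% of all genes. CDKB2;1, at a log2 ratio of 0.61, lay just inside this threshold, and CYCA1;1, at 0.58, and CDKB2;2, at 0.56, lay just outside it. At a lower threshold, a log2 ratio of at least 0.32, 16 members were higher, against 13.9% of all genes, and 1 was lower, against 8.19%. At 2-fold on this scale no member qualified in either direction, against 0.41% of all genes higher and 0.819% lower. Ratios and fold values given for single genes are of FPKM with nothing added. They can therefore pass a threshold that the gene does not pass in these counts. Intervals could be formed for 37 measured members, and 18 of them (48.6%) lay above 1, against 23.4% of all genes with an interval, while 2 (5.41%) lay below 1, against 14.8%.

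These shares depend on how the libraries are scaled, since the most abundant seed genes took unequal parts of them. The top 50 genes held 27.7% of the summed FPKM in GmPSKγ1 and 32.0% in the control. When those genes were left out of the scaling, 31 of 40 members had a ratio above 0, beside 45.7% of all genes, and 3 members were at least 1.5-fold higher, beside 2.07% of all genes. After rescaling by the median ratio of all genes, 31 members had a ratio above 0, beside 49.97% of all genes, and 4 were at least 1.5-fold higher, beside 2.43%. CYCA2;1, CYCD4;2 and KRP2 had ratios above 0 as deposited, each of at most 0.02 on the log2 scale, and below 0 under both of these scalings.

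**Figure D3:**
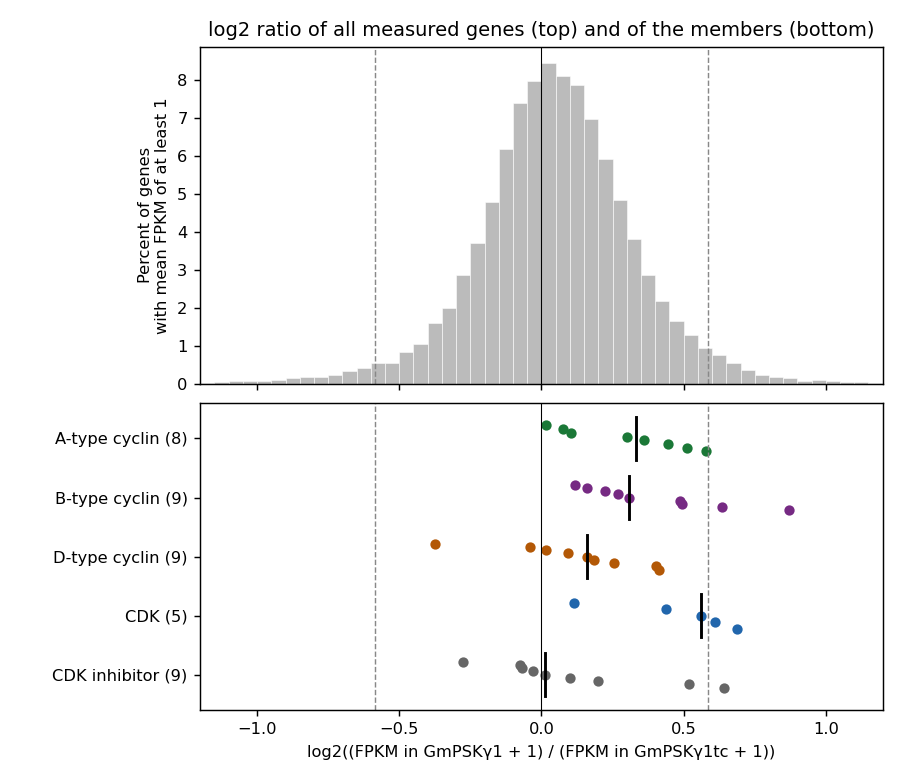
Distribution of the log2 ratio of GmPSKγ1 over control, with 1 added to each FPKM, for all 17816 measured genes (top, percent of genes per bin of 0.05) and for the 40 measured members by class (bottom, 1 point a gene, with a bar at the median). Dashed lines mark 1.5-fold in either direction, and 139 genes lie outside the plotted range of 1.2 on either side. The CDKs have the highest class median, 0.56, and the inhibitors the lowest, 0.01 as deposited and -0.04 and -0.06 under the rescalings.

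The A-type and B-type cyclins and the CDKB kinases, which act from S phase to mitosis, were higher in GmPSKγ1 seeds in 21 of 21 genes as deposited, and in all but CYCA2;1 under the median and abundant-gene rescalings. Over all measured genes, 57.9% were higher as deposited, and 49.97% and 45.7% under these rescalings in the same order. Of the 18 cyclin and CDKB genes with an interval, 13 had one above 1 and 5 had one that held 1. Of all genes with an interval, 23.4% had one above 1. B-type cyclins, which bring cells into mitosis, summed to 96.7 FPKM in GmPSKγ1 seeds and 72.9 FPKM in control seeds over 9 genes. Their log2 ratios ran from 0.12 to 0.87, with a median of 0.31. The 4 genes of the CYCB1 subgroup summed to 54.5 FPKM with GmPSKγ1 and 39.6 FPKM with the control construct, a ratio of 1.38. The 4 genes of the CYCB2 subgroup summed to 38.0 and 30.6 FPKM in the same order, a ratio of 1.24.

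CYCB1;3 (AT3G11520, chromosome 3, 3625324 to 3627273, TAIR10) had the largest log2 ratio of all members. It was at 7.94 FPKM in GmPSKγ1 seeds, against 3.88 FPKM in control seeds, on 210 and 96 reads. It was 2.04-fold higher (interval 1.5975 to 2.63), and its log2 ratio stood above that of 99.3% of measured genes. CYCB1;4 was at 15.3 FPKM in GmPSKγ1 seeds, against 10.6 FPKM in control seeds, on 402 and 261 reads, and was 1.44-fold higher (interval 1.23 to 1.69). CYCB1;2, the most abundant B-type gene, was at 23.4 FPKM in GmPSKγ1 seeds, against 18.7 FPKM in control seeds, on 678 and 506 reads. Its ratio was 1.251 (interval 1.11 to 1.41). CYCB1;1, widely used as a marker of cells passing from G2 to mitosis, was at 7.93 FPKM in GmPSKγ1 seeds, against 6.42 FPKM in control seeds, on 209 and 158 reads. The lower bound of its interval, 1.0001, was almost exactly 1, and the upper bound was 1.53. All 4 genes of the subgroup were thus higher by value, and this last one had the lowest ratio.

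In the CYCB2 subgroup, 1 gene had an interval above 1. CYCB2;2 (AT4G35620, chromosome 4, 16901621 to 16903920, TAIR10) was at 9.34 FPKM in GmPSKγ1 seeds, against 5.67 FPKM in control seeds, on 251 and 142 reads, and was 1.65-fold higher (interval 1.34 to 2.04). The other 3 genes of the subgroup had ratios of 1.11, 1.13 and 1.18, and their intervals held 1. CYCB3;1, the single gene of its subgroup, was at 4.23 FPKM in GmPSKγ1 seeds, against 2.72 FPKM in control seeds, on 135 and 81 reads, and was 1.56-fold higher (interval 1.17 to 2.08). Genes with an extended MSA form included both the lowest and the highest log2 ratio of the B-type class, 0.12 and 0.87. The pair of genes without that form had log2 ratios of 0.49 and 0.22, inside the same range.

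CDKB kinases, which are found in plants and act from S phase to mitosis, had similar ratios in all 4 genes, between 1.49 and 1.70. They summed to 72.9 FPKM in GmPSKγ1 seeds and 46.8 FPKM in control seeds, a ratio of 1.56. CDKB1;1 (AT3G54180, chromosome 3, 20059796 to 20061438, TAIR10) was at 11.4 FPKM in GmPSKγ1 seeds, against 6.67 FPKM in control seeds, on 224 and 123 reads, and was 1.70-fold higher (interval 1.36 to 2.14). CDKB1;2, its nearest relative, was at 4.02 FPKM in GmPSKγ1 seeds, against 2.70 FPKM in control seeds, on 95 and 59 reads. Reads of such close relatives may be divided between them in a way that is not known. CDKB2;1 (AT1G76540, chromosome 1, 28720328 to 28722521, TAIR10) was the most abundant of the kinases in GmPSKγ1 seeds, at 40.9 FPKM, against 26.5 FPKM in control seeds, on 898 and 542 reads. CDKB2;2 was at 16.6 FPKM in GmPSKγ1 seeds, against 10.9 FPKM in control seeds, on 330 and 203 reads, and was 1.52-fold higher (interval 1.27 to 1.82). The models of CDKB1;2 and CDKB2;1 overlap a neighbour by 20 and 44 bases, so no interval is given for their ratios of 1.49 and 1.55.

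CDKA;1, the kinase that acts through the whole cycle and is also present in cells that have left it, was nearly level. It was at 32.7 FPKM in GmPSKγ1 seeds, against 30.1 FPKM in control seeds, on 760 and 654 reads, with a ratio of 1.09 whose interval of 0.976 to 1.21 held 1. In the control this kinase was above every CDKB gene, while in GmPSKγ1 seeds CDKB2;1 was above it.

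A-type cyclins summed to 73.4 FPKM in GmPSKγ1 seeds and 55.8 FPKM in control seeds over 8 genes, with a median log2 ratio of 0.33. CYCA1;1, the A-type cyclin that acts closest to mitosis, was at 16.7 FPKM in GmPSKγ1 seeds, against 10.8 FPKM in control seeds, on 442 and 268 reads, and was 1.54-fold higher (interval 1.32 to 1.80). The 4 genes of the CYCA2 subgroup summed to 38.9 FPKM with GmPSKγ1 and 29.997 FPKM with the control construct. CYCA2;3, known for restraining endoreduplication together with CDKB1 kinases, was the most abundant of them at 19.8 FPKM in GmPSKγ1 seeds, against 15.2 FPKM in control seeds, on 611 and 438 reads. It was 1.30-fold higher (interval 1.15 to 1.48). CYCA2;2 was at 5.29 FPKM in GmPSKγ1 seeds, against 3.41 FPKM in control seeds, on 159 and 96 reads, and was 1.55-fold higher (interval 1.19 to 2.01).

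Of the 2 remaining CYCA2 genes, CYCA2;4 was at 11.5 FPKM in GmPSKγ1 seeds, against 9.13 FPKM in control seeds, 1.26-fold higher (interval 1.05 to 1.503). CYCA2;1 was at 2.32 and 2.29 FPKM in the same order, and its interval ran from 0.672 to 1.52. The CYCA3 genes are expressed around S phase. CYCA3;1 was at 6.86 FPKM in GmPSKγ1 seeds, against 4.77 FPKM in control seeds, on 120 and 78 reads, and was 1.44-fold higher (interval 1.07 to 1.94). The other 2 measured CYCA3 genes lie close together on chromosome 1 and had ratios of 1.095 and 1.06. The first of these had an interval that held 1, and the second overlaps the next model by 46 bases and has none.

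**Figure D4:**
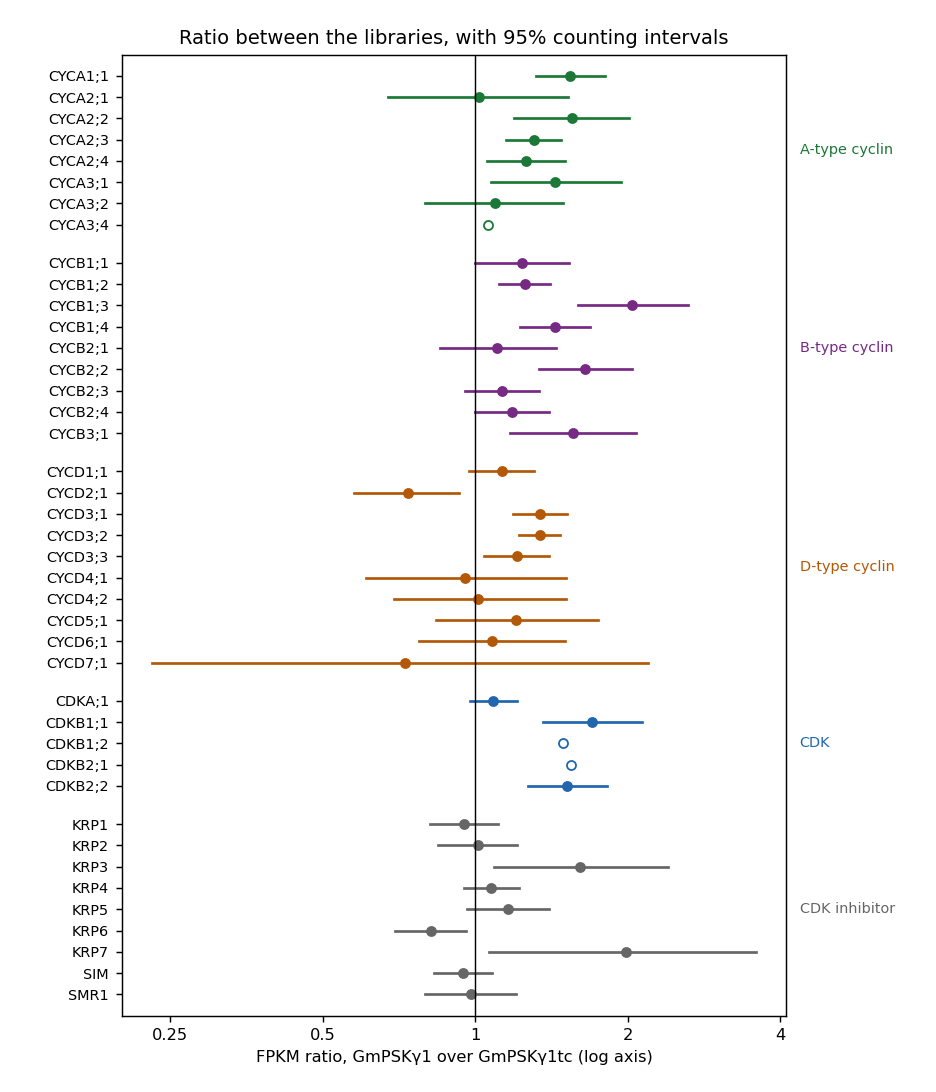
FPKM ratio of GmPSKγ1 over the GmPSKγ1tc control for each of the 41 genes (log axis, no pseudocount), with bars for the 95% counting interval. Open points are the 3 genes whose models overlap another and have no interval. Of the 37 measured members with an interval, 18 lie wholly above 1 and 2, CYCD2;1 and KRP6, wholly below.

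Among D-type cyclins, the 3 CYCD3 genes, which sustain division in young tissues and respond to cytokinin, were the most abundant and each had an interval above 1. Their sum was 91.1 FPKM in GmPSKγ1 seeds and 69.5 FPKM in control seeds, a ratio of 1.31, where the 9 measured genes of the class summed to 120.3 and 98.2 FPKM in the same order. CYCD3;2 (AT5G67260, chromosome 5, 26836148 to 26837811, TAIR10) was at 48.7 FPKM in GmPSKγ1 seeds, against 36.4 FPKM in control seeds, on 1130 and 788 reads, and was 1.34-fold higher (interval 1.22 to 1.47). CYCD3;1 was at 23.6 FPKM in GmPSKγ1 seeds, against 17.6 FPKM in control seeds, on 637 and 444 reads, and was also 1.34-fold higher (interval 1.19 to 1.52). CYCD3;3 was at 18.7 FPKM in GmPSKγ1 seeds, against 15.5 FPKM in control seeds, on 425 and 329 reads, and was 1.21-fold higher (interval 1.04 to 1.40).

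CYCD2;1 (AT2G22490, chromosome 2, 9553803 to 9556145, TAIR10), another G1 cyclin, stood on the other side. Its log2 ratio of -0.37 was the lowest of all measured members. It was at 4.57 FPKM in GmPSKγ1 seeds, against 6.21 FPKM in control seeds, on 128 and 163 reads, a ratio of 0.735 (interval 0.577 to 0.930). The other 5 measured D-type genes had ratios between 0.952 and 1.201, and the intervals of all 5 held 1. Among them, CYCD1;1 was at 12.4 FPKM in GmPSKγ1 seeds, against 10.96 FPKM in control seeds. CYCD6;1, known from formative divisions of the root, was at 5.50 and 5.10 FPKM in the same order. The CYCD4 genes and CYCD5;1 rested on 42 to 71 reads with GmPSKγ1 and 41 to 55 reads in the control, and a difference of the size seen in the CYCD3 subgroup was not detectable for them at this depth. The median log2 ratio of the class was 0.16, with 7 of 9 measured genes higher, or 6 of 9 under the median and abundant-gene rescalings. Among all measured genes 57.9% were higher as deposited, and 49.97% and 45.7% under these rescalings in the same order.

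The inhibitors as a class were level. The 9 genes summed to 154.7 FPKM in GmPSKγ1 seeds and 154.995 FPKM in control seeds. Their median log2 ratio was 0.01 as deposited, with 5 of 9 higher. It took the other sign at -0.04 and -0.06 under the median and abundant-gene rescalings, with 4 of 9 higher. These counts lay near the shares of all measured genes that were higher, 57.9% as deposited and 49.97% and 45.7% rescaled. SIM, the SIAMESE protein known from endoreduplicating leaf hairs, was the most abundant inhibitor, at 35.2 FPKM in GmPSKγ1 seeds, against 37.2 FPKM in control seeds, on 457 and 451 reads. Its ratio was 0.947 (interval 0.829 to 1.08). SMR1, known from the giant cells of sepals, was at 17.7 FPKM in GmPSKγ1 seeds, against 18.1 FPKM in control seeds (interval 0.797 to 1.204). The intervals of both SIAMESE-type genes held 1.

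The 7 KRP genes, which inhibit cyclin-CDK complexes across the cycle, summed to 101.7 FPKM in GmPSKγ1 seeds and 99.7 FPKM in control seeds. The most abundant of them in GmPSKγ1 seeds, KRP4, was at 24.05 FPKM in GmPSKγ1 seeds, against 22.3 FPKM in control seeds, with a ratio of 1.08 and an upper bound of 1.22. The most abundant in control seeds, KRP1, was at 21.7 FPKM in GmPSKγ1 seeds, against 22.8 FPKM in control seeds, with a ratio of 0.951 (interval 0.815 to 1.11). KRP2, KRP4 and KRP5 also had intervals that held 1, KRP2 and KRP5 with log2 ratios of 0.01 and 0.20.

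The 3 remaining KRP genes lay outside that band. KRP6 (AT3G19150, chromosome 3, 6616352 to 6617696, TAIR10) was at 17.4 FPKM in GmPSKγ1 seeds, against 21.3 FPKM in control seeds, on 285 and 326 reads, a ratio of 0.818 (interval 0.694 to 0.960). KRP7 (AT1G49620, chromosome 1, 18365491 to 18366559, TAIR10) was at 2.63 FPKM in GmPSKγ1 seeds, against 1.32 FPKM in control seeds, and was 1.98-fold higher on only 37 and 18 reads (interval 1.07 to 3.58). KRP3 was at 4.01 FPKM in GmPSKγ1 seeds, against 2.49 FPKM in control seeds, and was 1.61-fold higher on 74 and 43 reads (interval 1.09 to 2.40). The inhibitors with an interval above 1 were thus also the scarcest inhibitors. Beside the level sum of the inhibitors, the sums of the A-type, B-type and D-type cyclins were 1.31, 1.33 and 1.22 times as high in GmPSKγ1 seeds as in control seeds, and that of the 5 kinases was 1.37 times as high.

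Other genes of cell cycle control were read as further lists. Of the 9 genes of the retinoblastoma, E2F and DP group, 7 were higher in GmPSKγ1 seeds, none by 1.5-fold on the log2(FPKM + 1) scale, with a median log2 ratio of 0.20. Under the median and abundant-gene rescalings 5 of the 9 were higher, RBR1 and DPA taking the other sign. Of all measured genes, 57.9% were higher as deposited, and 49.97% and 45.7% under these rescalings in the same order. The atypical E2F genes DEL1, DEL2 and DEL3 had the largest ratios of the group. DEL1, a repressor of endoreduplication, was at 3.62 FPKM in GmPSKγ1 seeds, against 2.62 FPKM in control seeds, with an interval of 1.01 to 1.89. The intervals of DEL2 and DEL3 held 1. RBR1, the retinoblastoma gene, was level at 12.1 FPKM in GmPSKγ1 seeds and 12.03 FPKM in control seeds. The 4 MYB3R genes, whose products bind MSA elements, were split into 2 higher and 2 lower. MYB3R1 and MYB3R4, which encode activators, had ratios of 1.17 (interval 0.997 to 1.37) and 1.21 (interval 0.992 to 1.48). MYB3R3, which encodes a repressor, had a ratio of 0.919 (interval 0.772 to 1.097), so the intervals of all 3 held 1.

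Activators of the anaphase-promoting complex, which marks cyclins for destruction, were higher in 5 of 5 genes, none by 1.5-fold, with a median log2 ratio of 0.24. Under these rescalings 4 of 5 were higher and CCS52A1 was lower. The shares of all measured genes that were higher were 57.9% as deposited and 49.97% and 45.7% rescaled. CDC20.1, which acts in mitosis, was at 58.7 FPKM in GmPSKγ1 seeds, against 45.7 FPKM in control seeds, and was 1.28-fold higher (interval 1.19 to 1.38). Its neighbour and near copy CDC20.2 was at 20.6 and 17.4 FPKM in the same order (interval 1.05 to 1.34). CCS52B, whose model overlaps another, was at 18.9 FPKM in GmPSKγ1 seeds, against 14.3 FPKM in control seeds. CCS52A1, which promotes endoreduplication, had a log2 ratio of 0.03 as deposited (interval of the ratio 0.868 to 1.199).

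A list of 8 genes held the small CDK-binding proteins CKS1 and CKS2, the CDK-activating kinases with their cyclin, and the inhibitory kinase WEE1. In it 4 genes were higher and 4 lower, or 3 and 5 under the rescalings, none by 1.5-fold. Among all measured genes the share higher was 57.9% as deposited, and 49.97% and 45.7% rescaled. CKS1 was at 25.8 FPKM in GmPSKγ1 seeds, against 19.95 FPKM in control seeds (interval 1.06 to 1.58). CKS2 was at 39.4 FPKM in GmPSKγ1 seeds, against 28.7 FPKM in control seeds (interval 1.17 to 1.62). WEE1 was at 6.84 and 6.72 FPKM in the same order. Of the 7 further SIAMESE-related inhibitors, 4 were higher and 3 lower, or 2 and 5 under the rescalings, with a median log2 ratio of 0.01 as deposited and -0.03 and -0.06 rescaled. SMR7, which is induced by DNA damage, was the only one of them past 1.5-fold, on the lower side, where 2.68% of all measured genes lay. It was at 0.806 FPKM in GmPSKγ1 seeds, against 2.80 FPKM in control seeds, on no more than 4 and 13 reads (ratio 0.287, interval 0.0683 to 0.930).

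**Figure D5:**
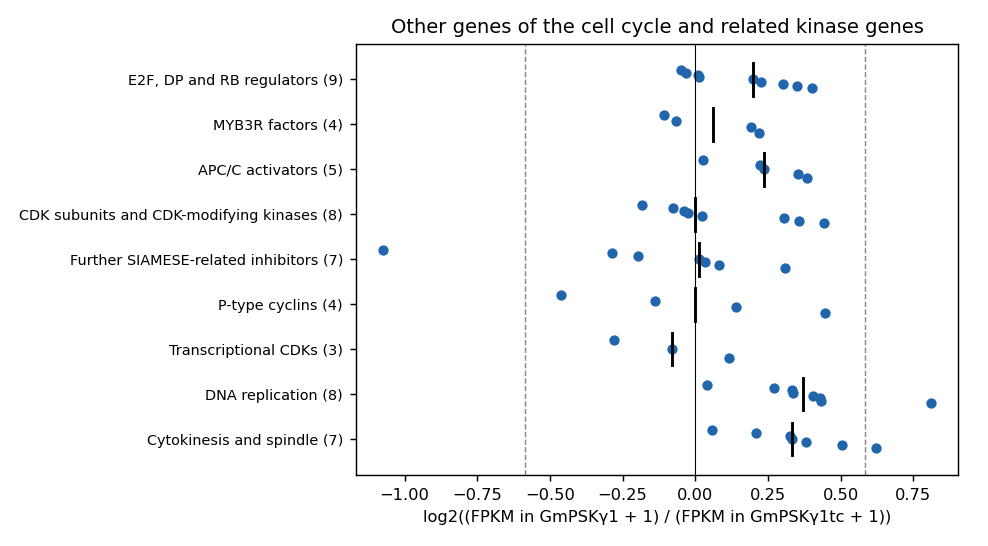
log2 ratio of GmPSKγ1 over control, with 1 added to each FPKM, for measured genes of the other cell cycle lists, 1 point a gene with a bar at the median and the number of genes in parentheses. Dashed lines mark 1.5-fold. As deposited, genes of replication and of cytokinesis all lie above 0, with medians of 0.37 and 0.33, while MCM4 lies below 0 under both the median and the abundant-gene rescaling and PLE under the abundant-gene rescaling.

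Genes that carry out DNA replication and cell division were read in the same way, where 57.9% of all measured genes had a ratio above 0 and 3.13% were at least 1.5-fold higher. All 8 replication genes, which encode subunits of the MCM helicase and the sliding clamp PCNA, had ratios above 0 as deposited, and so did all 7 genes of cytokinesis and the spindle. MCM4 was below 0 under both the median and the abundant-gene rescaling, and the spindle gene PLE under the second of these. Of all measured genes, 49.97% and 45.7% were above 0 under these rescalings in the same order. At 1.5-fold, 1 of 8 replication genes and 1 of 7 cytokinesis and spindle genes qualified as deposited. Under each rescaling these counts were 1 and 0, where 2.43% and 2.07% of all measured genes qualified under the median and abundant-gene rescalings. The intervals of MCM4 (0.898 to 1.18), PLE (0.937 to 1.16) and AUR3 (0.960 to 1.73) held 1. MCM7 and PCNA2 overlap another model and have no interval. The median log2 ratios of these lists, 0.37 and 0.33, were near those of the A-type and B-type cyclins, 0.33 and 0.31. The difference between the lists was not tested. PCNA1 was at 18.7 FPKM in GmPSKγ1 seeds, against 10.3 FPKM in control seeds, and was 1.83-fold higher (interval 1.51 to 2.22). The mitotic kinase gene AUR1 was at 31.3 FPKM in GmPSKγ1 seeds, against 20.02 FPKM in control seeds, and was 1.56-fold higher (interval 1.37 to 1.79), a ratio like those of the CDKB genes. The cytokinesis syntaxin gene KN, the most abundant gene of these lists, was at 121.2 FPKM in GmPSKγ1 seeds, against 95.97 FPKM in control seeds (interval 1.19 to 1.34).

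Markers of seed tissues were read in the same libraries, and their part in the ratios of the cell cycle genes was not tested. Of all measured genes, 57.9% had a ratio above 0 as deposited. Of 5 measured embryo markers 1 was higher in GmPSKγ1 seeds and 4 were lower, and the list of 7 summed to 9995 FPKM in GmPSKγ1 seeds and 10759 FPKM in control seeds. Nearly all of that sum was the oil-body gene OLEO1, at 9925 FPKM in GmPSKγ1 seeds, against 10689 FPKM in control seeds. LEC1, an embryo regulator, was the one measured embryo marker that was higher, at 19.2 FPKM in GmPSKγ1 seeds, against 15.2 FPKM in control seeds. Of 3 measured endosperm markers 1 was higher and 2 were lower, and the list of 6 summed to 12.9 FPKM in GmPSKγ1 seeds and 14.6 FPKM in control seeds. PHE1, a gene of early endosperm below the minimum, was listed at 0 in GmPSKγ1 seeds and at 0.1555 FPKM in control seeds. These values rest on 0 and 2 reads in the same order. Of 5 measured seed coat markers 2 were higher and 3 lower, and the list of 6 summed to 779 FPKM in GmPSKγ1 seeds and 821 FPKM in control seeds. Most of that sum was TT10, a lower gene, at 597 FPKM in GmPSKγ1 seeds, against 682 FPKM in control seeds. The 2 higher genes were MUM2 and BAN. MUM2 was at 51.4 FPKM in GmPSKγ1 seeds, against 32.6 FPKM in control seeds. BAN was at 117.3 and 91.1 FPKM in the same order (interval 1.21 to 1.37). Both measured fruit wall markers were higher, and the list of 5 summed to 19.5 FPKM in GmPSKγ1 seeds and 14.9 FPKM in control seeds. ALC, a gene of fruit opening, was at 3.35 FPKM in GmPSKγ1 seeds, against 1.79 FPKM in control seeds, on 54 and 27 reads, and was 1.87-fold higher (interval 1.16 to 3.08). Most of the sum was SHP1, which ovules also express and whose model overlaps another, at 14.7 FPKM in GmPSKγ1 seeds, against 12.2 FPKM in control seeds. IND, a defining gene of the fruit's valve margin, was at 0.239 FPKM in GmPSKγ1 seeds and was listed at 0 in control seeds. It was below the minimum too, on 6 and 0 reads.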

How the data were processed

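Each library has 1 file of FPKM values, computed and deposited by the authors, for the same 33602 gene models. The submitters' processing notes name Bowtie 0.12.2 and the build TAIR10. No source used here gives the FPKM program, the annotation release, strandedness or the treatment of reads with several matches, so reads of close paralogs or of antisense genes may be divided in unknown ways.

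Log2 ratios were taken of FPKM plus a pseudocount of 1, which makes differences of scarce genes look smaller. Plain ratios and fold values of single genes, and their intervals, had no pseudocount. Counts used a minimum mean of 1 FPKM and a threshold of 1.5-fold. Reads were FPKM times transcript length over the value of a single read, with lengths from TAIR10.1 fitted to the deposited model. The value of a single read was found in 5718 single-exon models. Of their values checked under 200 reads, 659 in GmPSKγ1 and 649 in the control, 99.5% were whole within 0.05 in each library. For members with an interval, reads were whole in both libraries for 21 and approximate for 16. The approximate ones include both measured members with an interval below 1, CYCD2;1 and KRP6. Among members with an interval above 1, they are CYCA2;2, CYCB1;2, CYCB1;3, CYCB2;2, KRP3 and KRP7. The functions were tested on simulated data. Python 3.11.15, numpy 2.4.6 and scipy 1.17.1 were used.

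Members and the 13 other lists (82 genes) were chosen with earlier results of these data known. From each other list, the 3 genes with the largest absolute log2 ratio and the most abundant gene could be named. DPA, MCM4, PLE, WEE1, CCS52A1, PHE1 and IND were named after their values were seen, and AUR3 and MCM7 also fell outside this rule. Of the members, 32 bear the name used here in the reference, and the others stand there under another symbol. Alternatives were other pseudocounts, minima, thresholds and scalings, and leaving out overlapping models.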

Additional observations from a re-analysis of the deposited data

How the results depend on the processing

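The number of members at least 1.5-fold higher, 5 as reported, moved most. It was 10 with a pseudocount of 0.1, beside 5.30% of all genes, and 0 with a pseudocount of 5, beside 0.819%. With the 50 most abundant genes left out of the scaling it was 3, beside 2.07%. With the lower threshold it was 16, beside 13.9%, and with a threshold of 2-fold it was 0, beside 0.41%. The number lower, 0 as reported, was 1 with the lower threshold, beside 8.19% of all genes. Over the 8 other settings of pseudocount, minimum, scaling and overlap, the median log2 ratio of the members stayed between 0.16 and 0.26. Class medians ranged over 0.25 to 0.36 for A-type cyclins, 0.23 to 0.32 for B-type cyclins, 0.08 to 0.21 for D-type cyclins, 0.44 to 0.60 for CDKs and -0.06 to 0.02 for inhibitors. With a pseudocount of 5, the log2 ratio of CYCB1;3 was 0.54 and that of KRP7 was 0.27. CYCA2;1, CYCD4;2 and KRP2 changed sign under the median and abundant-gene rescalings. Intervals taken relative to the median ratio, a choice made after seeing the data, lay above 1 for 17 members and below 1 for 2. As deposited these counts were 18 and 2, beside 23.4% and 14.8% of all genes with an interval. The share of all genes relative to the median ratio is not given. No paired analysis was possible because each genotype has 1 library, and no library could be left out for the same reason. Ratios of members with few reads, such as KRP7 and the CYCD4 genes, are limited by depth.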

Other observations

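Cyclin and kinase genes outside the core cell cycle had values on both sides of 1. Of the 7 P-type cyclin genes, a family tied to nutrient signalling, 4 were measured and 3 were listed at 0 in both libraries. CYCP4;1 was at 13.7 FPKM in GmPSKγ1 seeds, against 9.78 FPKM in control seeds, a ratio of 1.40 (interval 1.13 to 1.73). CYCP3;1, the most abundant of the family, was at 20.4 FPKM in GmPSKγ1 seeds, against 22.5 FPKM in control seeds (interval 0.752 to 1.09). Among CDKs that act on transcription, 1 of 3 was higher and 2 were lower, where 57.9% of all measured genes were higher. CDKC;1 was at 21.2 FPKM in GmPSKγ1 seeds, against 25.98 FPKM in control seeds, a ratio of 0.818 (interval 0.732 to 0.914). CDKC;2, whose model overlaps another, was at 52.2 FPKM in GmPSKγ1 seeds, against 48.1 FPKM in control seeds.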
